A study of Mus musculus with 17 samples.

Results

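The amino acid carriers of the Slc6, Slc7 and Slc38 families were followed through 17 single 2-cell mouse embryos. A member was any array row with exactly 1 gene symbol that starts with Slc6a, Slc7a or Slc38a and goes on with a number, with 1 gene of the Slc38 family left out. This gave 49 rows for 47 symbols, out of 21780 rows with 1 symbol and 28815 rows in all. The Slc6 family held 21 rows, the Slc7 family 16 and the Slc38 family 12. Of the 47 symbols, 45 were carriers and the other 2, Slc7a6os and Slc6a19os, were genes on the opposite strand of a carrier gene, which the naming rule also takes in. Slc38a9 and Slc38a1 had 2 rows each, called row a and row b.

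All animals were wild-type mice of the strain 129SVE (129S6/SvEvTac, Taconic), and ages were not given. Sires received saline or PJ34, an inhibitor of PARP1 and PARP2 (enzymes that build poly(ADP-ribose) chains), by daily injection for 6 weeks, and were then mated naturally to untreated wild-type females. The PJ34 group comprised 10 embryos, 4 of sire MTM11, 4 of sire MTM13 and 2 of sire MTM14, and the control group comprised 7 embryos, 1 of sire A, 3 of sire B and 3 of sire D. The question was whether treatment of the father, which alters histone retention in his sperm, changed transcript levels in his offspring. The control sires were labelled as saline treated in one place and as untreated in another, and a supplement legend gave a longer treatment. Embryos of a sire shared that father, so a difference of 1 family cannot be told apart from anything else particular to its sire, and the p-values measure only the spread between embryos.

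Solute carriers of these families bring amino acids and related small molecules across cell membranes. Slc6 proteins couple uptake to sodium, and many also to chloride, and carry glycine, taurine, proline, betaine, creatine and monoamine transmitters. Slc7 proteins carry cationic, neutral or sulphur-containing amino acids, and many are exchangers that work only when bound to a heavy chain such as Slc3a2. Slc38 proteins carry glutamine and other small neutral amino acids with sodium, and several sit on lysosomes. In the early mouse embryo glycine taken up by Slc6a9 (GLYT1) is known as an organic osmolyte that holds cell volume in place of salts.

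Since the study concerned chromatin near gene starts, the upstream sequence of the glycine carrier is shown first, because Slc6a9 was the single member called in a family of embryos. RefSeq (GRCm38.p6) gave 3 start sites for Slc6a9 on the plus strand of chromosome 4, and the 250 bases before each lay at chr4:117835008-117835257, chr4:117849100-117849349 and chr4:117855297-117855546. Capitals mark CG dinucleotides, of which the windows held 9, 10 and 8, against a median of 6 over 32851 such windows of all genes. Between 37.8% and 43.0% of all windows held as many or more.

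Slc6a9 start 1: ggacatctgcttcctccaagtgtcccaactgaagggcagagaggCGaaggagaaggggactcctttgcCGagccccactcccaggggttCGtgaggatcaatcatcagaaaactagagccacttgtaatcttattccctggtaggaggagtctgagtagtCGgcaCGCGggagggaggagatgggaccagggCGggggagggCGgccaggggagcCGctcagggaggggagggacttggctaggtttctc
Slc6a9 start 2: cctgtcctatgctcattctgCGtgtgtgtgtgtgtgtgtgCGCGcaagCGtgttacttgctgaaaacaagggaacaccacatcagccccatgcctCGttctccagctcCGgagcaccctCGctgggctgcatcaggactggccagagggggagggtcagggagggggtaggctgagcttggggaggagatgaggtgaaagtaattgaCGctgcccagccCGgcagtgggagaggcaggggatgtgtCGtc
Slc6a9 start 3: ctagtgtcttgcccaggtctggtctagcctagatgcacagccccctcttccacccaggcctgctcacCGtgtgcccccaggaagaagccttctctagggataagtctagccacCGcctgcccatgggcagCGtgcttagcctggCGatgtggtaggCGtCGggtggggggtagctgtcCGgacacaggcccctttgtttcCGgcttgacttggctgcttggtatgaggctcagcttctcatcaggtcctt

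The window before the start of Slc7a11, the cystine and glutamate exchanger, is shown as an example of the amino acid response element, the letters at which the transcription factor ATF4 is known to raise transcription when amino acids are short. It lay at chr3:50443614-50443863 on the minus strand. Capitals mark matches to TGATGNAAN on either strand.

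Slc7a11: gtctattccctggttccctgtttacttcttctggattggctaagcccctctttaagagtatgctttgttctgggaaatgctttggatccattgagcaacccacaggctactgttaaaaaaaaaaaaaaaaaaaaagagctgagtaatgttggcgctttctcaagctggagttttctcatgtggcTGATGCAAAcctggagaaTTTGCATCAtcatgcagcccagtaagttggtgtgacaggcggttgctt

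This window held 2 such matches that did not overlap, 1 on each strand. Over all genes, 3.44% of windows held at least 1 match, and among the members 4 of 51 windows did, belonging to Slc6a21, Slc7a7 and Slc7a11. The promoter table matched 33 of the 47 symbols. A match describes these letters and is not evidence of a bound site.

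Array values were log2 RMA levels, on which a difference of 1 is a doubling of signal. Probe sets differ in brightness at the same RNA amount, so rows were placed against 2 marks on the array and not against one another. The signal floor was 6.25, the 95th percentile of the row means of 1035 olfactory receptor rows, genes of smell-sensing neurons. The bright value was 7.41, above which 25% of all rows with 1 symbol lay. Array medians ran from 6.12 to 6.23, and any 2 arrays correlated at 0.941 to 0.959. The embryo label fitted the oocyte and 2-cell markers. Of all rows 50.2% lay above the floor, against 18 of 20 rows of the oocyte and maternal list and 11 of 13 of the 2-cell genome activation list. The oocyte gene Oosp1 was at 12.14 and the 2-cell gene Zfp352 at 10.40. Rows above the floor numbered 1 of 15 for cumulus cells, 5 of 11 for oviduct epithelium, 1 of 7 for blood and 2 of 10 for sperm and spermatids. The oviduct count lay near the share of all rows.

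Most rows of these families had a mean under the floor at the 2-cell stage. Of the 49 rows, 18 had a mean above the floor, which is 36.7% against 50.2% of all rows, and 5 were bright, which is 10.2% against 25%. By family the rows above the floor were 8 of 21 for Slc6, 6 of 16 for Slc7 and 4 of 12 for Slc38. Counted embryo by embryo, 13 rows exceeded the floor in all 17 embryos, 24 rows in none and 12 rows in some.

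**Figure D1:**
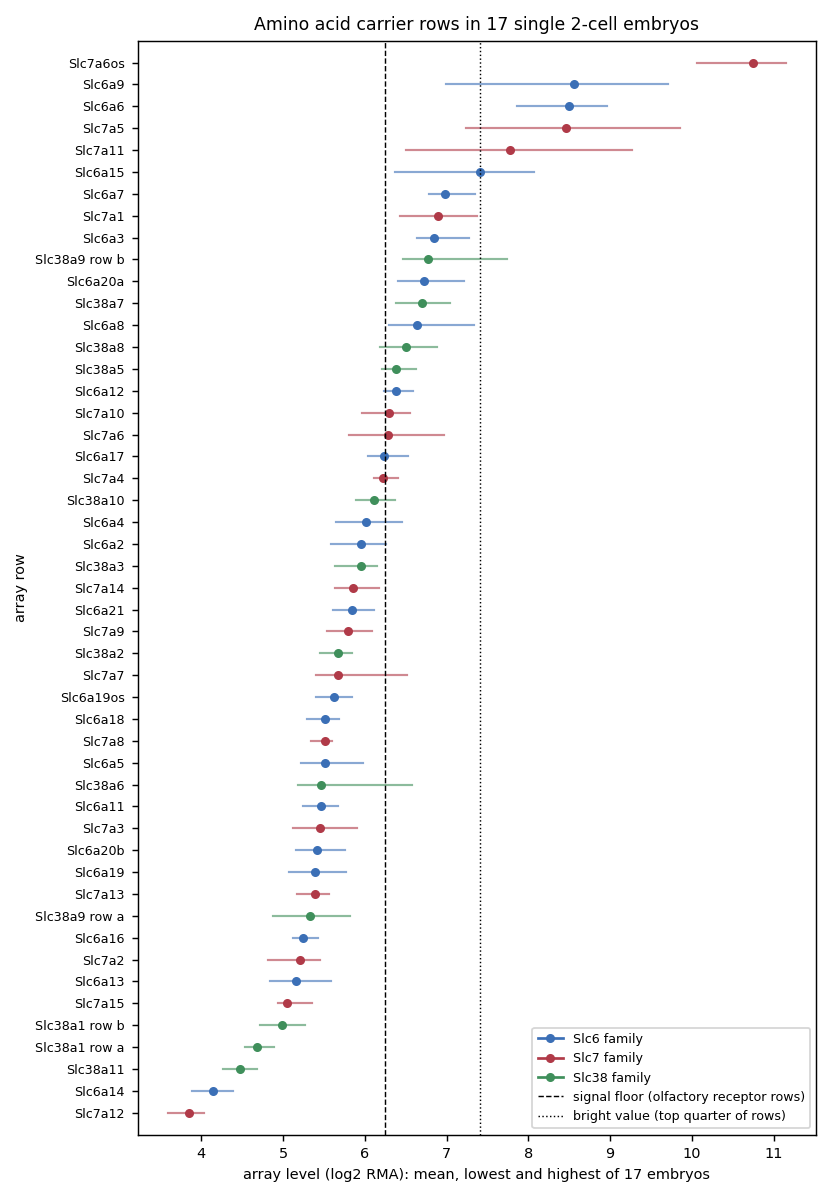
Mean array level (log2 RMA, horizontal axis) of each of the 49 rows over 17 embryos, with a line from the lowest to the highest embryo and colours for the 3 families. The dashed line is the signal floor of 6.25 and the dotted line the bright value of 7.41, and 5 rows have means beyond the bright value.

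The 5 bright rows were Slc7a6os, Slc6a9, Slc6a6, Slc7a5 and Slc7a11. Slc6a9 had a mean of 8.56 ± 0.70 (SD, n = 17), at the 85.0th percentile of all rows. Slc6a6, the carrier of taurine and beta-alanine, which also serve as organic osmolytes, had a mean of 8.50 ± 0.33 (SD, n = 17). Slc7a5, the LAT1 exchanger of leucine and other large neutral amino acids, had a mean of 8.45 ± 0.75 (SD, n = 17). Slc7a11 supplies cystine for glutathione and had a mean of 7.77 ± 0.75 (SD, n = 17). All 4 of these carriers exceeded the floor in each of the 17 embryos.

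The fifth bright row was not that of a carrier. Slc7a6os, the opposite-strand neighbour of Slc7a6, encodes a factor known for bringing RNA polymerase II into the nucleus, and its row had a mean of 10.75 ± 0.27 (SD, n = 17). The row of Slc7a6 itself, an exchanger of cationic for neutral amino acids, had a mean of 6.28 ± 0.33 (SD, n = 17) and exceeded the floor in 8 of 17 embryos.

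Among the rows between the floor and the bright value, Slc6a15, a carrier of branched-chain amino acids and proline, averaged 7.40 and Slc6a7, a proline carrier of neurons, 6.98. Slc7a1, the CAT-1 carrier of arginine and lysine, averaged 6.90. Slc6a20a, which carries proline and is known as the betaine carrier of early mouse embryos, averaged 6.72 and stayed above the floor in all 17 embryos. Row b of Slc38a9, a lysosomal protein that senses arginine for mTORC1, averaged 6.77 and its row a 5.33. The 2 rows of that gene thus lay on opposite sides of the floor. The creatine carrier Slc6a8 averaged 6.64 and the lysosomal glutamine carrier Slc38a7 averaged 6.70. The remaining rows above the floor were those of Slc6a3, Slc38a8, Slc38a5, Slc6a12 and Slc7a10, at means of 6.29 to 6.84.

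Under the floor lay 31 rows, with means from 3.85 for Slc7a12 to 6.24 for Slc6a17. These included Slc38a2, the glutamine carrier known to be induced by amino acid shortage, at 5.67, and both rows of Slc38a1, a related glutamine carrier, at 4.98 and 4.68. The second glycine carrier Slc6a5 (GLYT2), which serves inhibitory neurons, averaged 5.51 and exceeded the floor in no embryo. A row under the floor can still miss a low transcript level.

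The bright carriers differed widely from embryo to embryo. Slc7a11 ran from 6.50 in D-1 to 9.27 in D-2, both of sire D, a range of 6.83-fold. Slc6a9 ran from 6.99 in MTM14-2 to 9.71 in MTM13-4, a range of 6.56-fold, and Slc7a5 from 7.24 in MTM11-1 to 9.86 in MTM14-2, a range of 6.14-fold. The SD of Slc7a11 exceeded that of 80.0% of the rows within 0.5 of its level, that of Slc7a5 exceeded 75.1% and that of Slc6a9 exceeded 70.1%. Slc6a6 varied less, with a range of 2.14-fold, and 18.4% of rows of like level had a smaller SD. The 49 rows had a median SD of 0.16, against 0.19 for all rows.

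**Figure D2:**
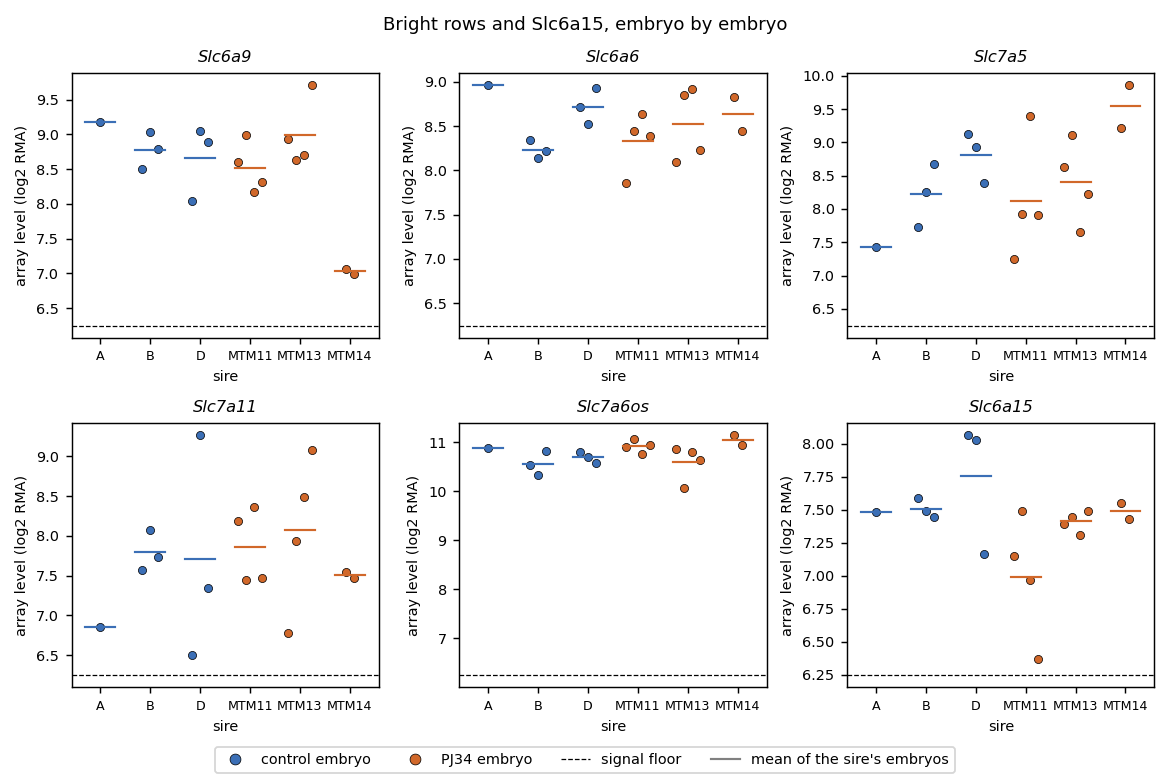
Array level (log2 RMA, vertical axis) of the 5 bright rows and of Slc6a15 in each embryo, by sire, with a bar for the mean of a sire's embryos and a dashed line at the signal floor of 6.25. The 2 embryos of MTM14 lie at 7.06 and 6.99 for Slc6a9, below the other 15 embryos.

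PJ34 against control gave no called member. With limma's moderated test on all 21780 rows, 0 rows (0%) passed an adjusted p of 0.1, and the smallest adjusted p of a member was 0.843. A plain analysis of variance also called 0 rows. At an unadjusted p below 0.05, limma gave 1282 rows (5.89%) and 2 of the 49 members (4.08%). Both members were lower in PJ34 embryos, where 3.93% of all rows were lower and 1.96% higher at this level. The groups did not overlap in 3 of all 21780 rows and in 0 of the 49 members. The difference was below 0 in 33 of the 49 rows, 67.3% against 56.4% of all rows, and the members' median difference was -0.021 against -0.016 over all rows. Among the 18 rows above the floor the split was even, 9 lower and 9 higher, and among the 31 rows under it 24 were lower. The share of lower rows among all rows under the floor was not counted, so the last count has no like background. Leaving out 1 embryo gave 2 called rows without A-2, 1 each without MTM11-1, MTM11-3, MTM13-4 or MTM14-2, and 0 otherwise, with 0 members among them.

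**Figure D3:**
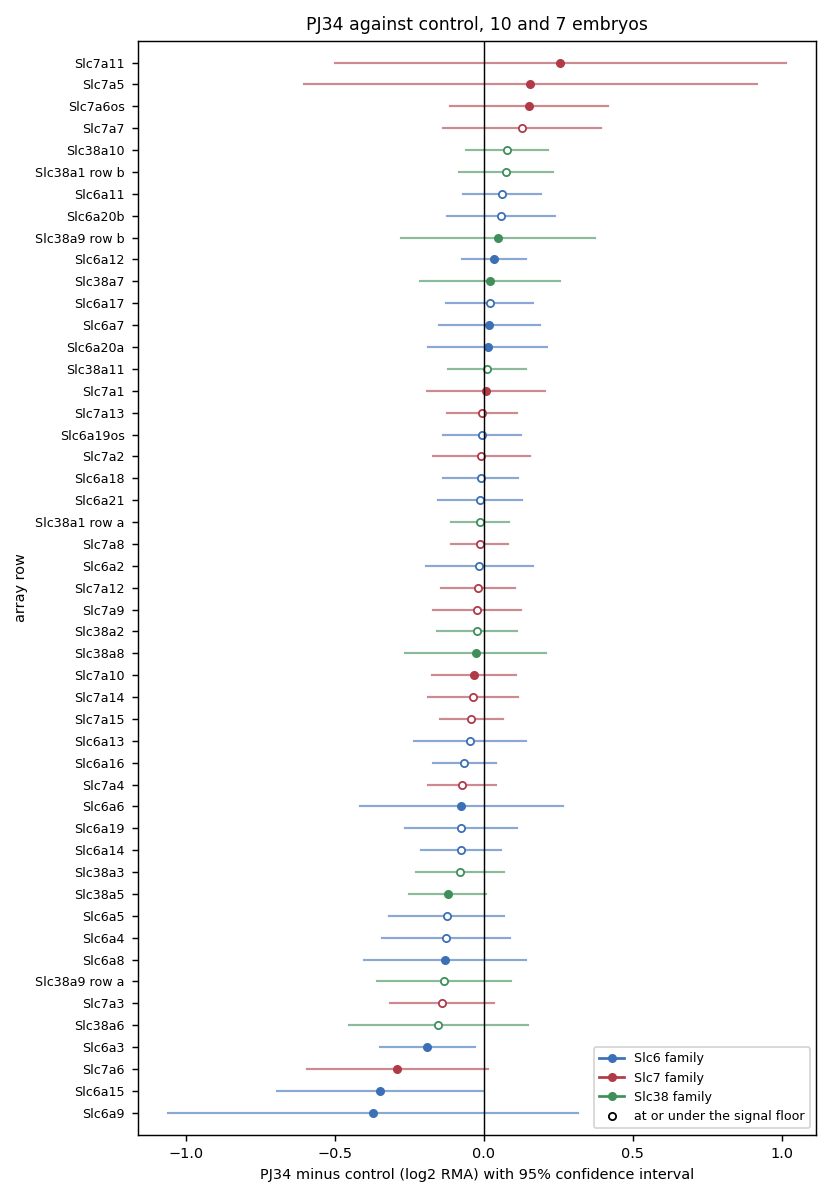
PJ34 minus control (log2 RMA, horizontal axis) for the 49 rows with 95% confidence intervals from limma, 10 against 7 embryos. Open circles are rows at or under the signal floor, and the interval excludes 0 for Slc6a3 and Slc6a15.

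Slc6a3, the dopamine transporter, ran from 6.73 over a median of 6.99 to 7.27 in control embryos and from 6.64 over 6.77 to 6.95 in PJ34 embryos. The groups overlapped, with 4 of 10 PJ34 embryos below all controls and 10 of 10 below the control mean of 6.95. The controls A-2, B-1 and B-3, at 6.73 to 6.84, also lay below that mean. The difference was -0.19 (95% confidence interval -0.35 to -0.031, limma unadjusted p = 0.0218, adjusted p = 0.843), and without the highest control, B-2, it was -0.14.

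Slc6a15 ran from 7.16 over a median of 7.49 to 8.07 in control embryos and from 6.37 over 7.41 to 7.55 in PJ34 embryos. None of the 10 PJ34 embryos reached the control mean of 7.61, and 3 of them, all of sire MTM11, lay below every control. That mean was raised by D-1 at 8.07 and D-2 at 8.03, and the other controls, at 7.16 to 7.58, also lay below it. All embryos of MTM13 and MTM14 lay within the control range. The difference was -0.35 (interval -0.70 to -0.0027, limma unadjusted p = 0.0484, adjusted p = 0.843), and without the lowest embryo, MTM11-4, it was -0.25.

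For the glycine carrier, the control embryos ran from 8.03 over 8.89 to 9.17 and the PJ34 embryos from 6.99 over 8.61 to 9.71. The PJ34 group held both the lowest and the highest Slc6a9 values of all 17 embryos. Its mean was 8.41 ± 0.84 (SD, n = 10) against 8.78 ± 0.40 (SD, n = 7) in controls, a difference of -0.37 (interval -1.06 to 0.32, limma adjusted p = 0.918). Without MTM14-1 or MTM14-2 this difference was -0.22 or -0.21, each time with the other low embryo of that family still in. The embryos of MTM11 averaged 8.52 and those of MTM13 8.99, on either side of the control mean, while those of MTM14 averaged 7.03. Over the means of the 6 sires, where MTM14 weighs as much as each larger family, the difference was -0.69.

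The other bright carriers did not differ between groups by more than their spread. Slc6a6 was at 8.54 ± 0.33 (SD, n = 7) in control and 8.47 ± 0.35 (SD, n = 10) in PJ34 embryos, and the interval of the difference was -0.42 to 0.26. Slc7a5 was at 8.36 ± 0.62 and 8.52 ± 0.86, with an interval of -0.61 to 0.92. Slc7a11 was at 7.62 ± 0.90 and 7.88 ± 0.66, with an interval of -0.50 to 1.01. With 1 embryo left out, the Slc7a11 difference of 0.26 ran from 0.068 (without D-1) to 0.53 (without D-2). The Slc7a5 difference of 0.16 ran from -0.00074 (without A-2) to 0.30 (without MTM11-1), and it was 0.53 over sire means. Slc7a6os was at 10.66 ± 0.19 and 10.81 ± 0.30, with 5 of 10 PJ34 embryos above all controls and an interval of -0.12 to 0.41.

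Among the dimmer rows that ranked next by p, Slc7a6 differed by -0.29 (limma unadjusted p = 0.0592) and Slc38a5, a glutamine and glycine carrier, by -0.12 (unadjusted p = 0.0638). Slc7a3, a CAT-type arginine carrier under the floor, differed by -0.14 (-0.078 without B-1), and Slc6a5 by -0.12. None passed, and their control and PJ34 values overlapped. Differences of the 36 rows not named for a value of their own ran from -0.13 to 0.13.

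Compared family by family, 1 member was called. In the 2 embryos of sire MTM14, Slc6a9 was at 7.06 and 6.99, while the controls lay between 8.03 and 9.17 and the other 8 PJ34 embryos between 8.18 and 9.71. Both values stayed above the floor, and neither overlapped with another embryo. MTM14 minus control was -1.75 ± 0.30 (SE), a 3.37-fold lower signal (interval -2.40 to -1.11, limma adjusted p = 0.0803). This comparison called 12 of all rows (0.0551%), 3 of them lower (0.0138%), so Slc6a9 was 1 of 3 rows lower in this family. The family rests on 2 embryos of 1 father.

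The call for Slc6a9 was not firm. It was lost when any of 12 embryos was left out, namely A-2, B-2, B-3, D-2, D-3, MTM11-1, MTM11-3, MTM11-4, MTM13-1, MTM13-3, MTM14-1 or MTM14-2, with adjusted p-values of up to 0.175. It was kept without any one of the other 5, and the lowest adjusted p, 0.0473, came without D-1. The size moved little, between -1.88 and -1.69 over all alternatives. In MTM11 and MTM13 embryos Slc6a9 differed from control by -0.26 (interval -0.77 to 0.24) and 0.21 (interval -0.29 to 0.72). An F test between the 3 PJ34 families called 3 rows (0.0138%) and no member at an adjusted p of 0.1. At an unadjusted p below 0.05 it took 1069 rows (4.91%) and 1 member, Slc6a9 (limma unadjusted p = 9.91e-05, adjusted p = 0.218).

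Markers of other kinds were read in the same embryos. The mean level over the oocyte and maternal list was 9.40 in MTM14-1 and 9.45 in MTM14-2, below the control range of 9.47 to 9.69. The mean over the 2-cell genome activation list was 8.14 and 8.48, against 8.32 to 8.75 in controls. The lowest PJ34 mean of that list, 7.74, belonged to an embryo of another sire. The cumulus list was at 5.43 and 5.39 against 5.31 to 5.48, and the blood list at 5.78 and 5.55 against 5.43 to 5.77. The oviduct list was at 6.17 and 6.13 against 6.02 to 6.23, and the sperm and spermatid list at 5.55 and 5.54 against 5.44 to 5.73. The part of these levels in the Slc6a9 result was not tested. In bulk RNA of an embryo, fewer transcripts in each cell and fewer cells with RNA cannot be told apart.

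In MTM14, 4 of 49 rows (8.16%) were past an unadjusted p of 0.05, against 5.53% of all rows, 1 lower (3.00% of all rows) and 3 higher (2.53% of all rows). The lower one was Slc6a9, and the 3 higher ones were not called. Slc7a5 was at 9.22 and 9.86, above all controls (7.42 to 9.12), with a difference of 1.18 (interval 0.073 to 2.29, limma adjusted p = 0.875). MTM11-3, of another treated sire, was also above all controls for Slc7a5, at 9.40. Slc7a7, the y+LAT1 exchanger of cationic for neutral amino acids, was higher by 0.49 (limma unadjusted p = 0.0164) and Slc7a6os by 0.38 (limma unadjusted p = 0.0487). The Slc7a7 difference came from MTM14-2 at 6.52, the 1 embryo above the floor for that row, while MTM14-1 was at 5.65 and controls lay between 5.41 and 5.83.

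The other families gave no called member. MTM11 against control called 1 of all rows (0.00459%), and at an unadjusted p below 0.05 it took 1 member, Slc6a15, of 5.25% of all rows, or 2.53% counting rows that were lower. Slc6a15 was at 7.15, 7.49, 6.97 and 6.37 in the 4 MTM11 embryos, a difference of -0.62 ± 0.19 (SE, limma unadjusted p = 0.00581, adjusted p = 0.850). Of these 4, MTM11-2 alone lay within the control range. MTM13 against control called 0 rows (0%), and at an unadjusted p below 0.05 it took 0 members against 4.96% of all rows.

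Single embryos were set against the controls one by one, with the spread of the controls standing in for that of the lone embryo. No member was called in any of the 10 PJ34 embryos, each of which had 63 to 200 rows called, and 1044 rows (4.79%) were called in at least 1 of them. The strongest members there were Slc7a7 in MTM14-2 (difference 0.92, adjusted p = 0.112) and Slc6a9 in MTM14-1 (difference -1.72, adjusted p = 0.198) and MTM14-2 (difference -1.79, adjusted p = 0.247). Leaving out the control embryo D-1 brought all 3 past the threshold, at adjusted p-values of 0.0858, 0.0397 and 0.0617.

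Control embryos, tested in the same way against the other 6, gave 2 called members, against 606 rows (2.78%) called in at least 1 control. Slc38a6, a little-studied member of the glutamine carrier family, was at 6.57 in D-1 and between 5.31 and 5.51 in the other controls, and PJ34 embryos lay between 5.18 and 5.62. D-1 alone of the 17 embryos exceeded the floor for this row. The measured difference was 1.19 (limma adjusted p = 0.0123), with the other controls under the floor, in a comparison that called 0.427% of rows.

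Row b of Slc38a9 was at 7.74 in B-1 and between 6.47 and 6.73 in the other controls, and PJ34 embryos lay between 6.48 and 7.21. The difference was 1.16, a 2.24-fold higher signal (limma adjusted p = 0.0269), in a comparison that called 0.381% of rows. Row a of the same gene did not follow, at 5.22 in B-1, the lowest control, with the other controls between 5.28 and 5.66. Both calls held under each alternative that tested the row with that embryo present.

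**Figure D4:**
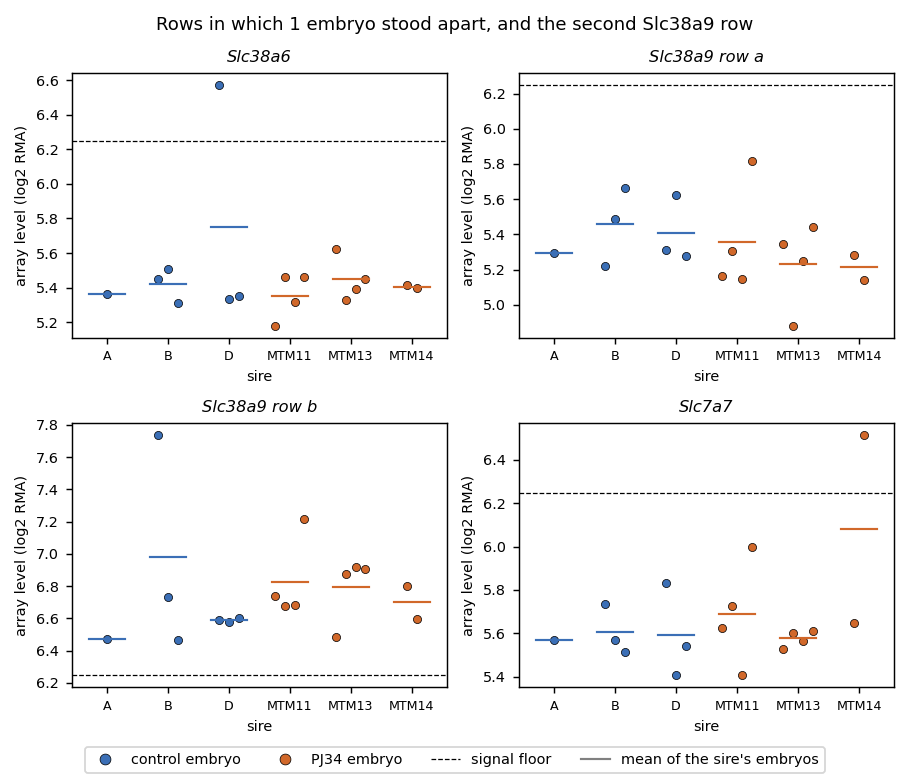
Array level (log2 RMA, vertical axis) of Slc38a6, the 2 rows of Slc38a9 and Slc7a7 in each embryo, by sire, with a bar for the mean of a sire's embryos and a dashed line at the signal floor of 6.25. D-1 stands at 6.57 for Slc38a6, B-1 at 7.74 for row b of Slc38a9 and MTM14-2 at 6.52 for Slc7a7, each above the other 16 embryos.

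The genes that work with these carriers were read from 5 further lists, in which no row was called in any group or family comparison or in any single embryo. These lists were chosen with earlier results of these data known. Their counts are therefore shown beside the share of all rows and are not a test of an excess. Among 17 rows of carrier partners and other plasma membrane carriers, 1 row passed an unadjusted p of 0.05, against 5.89% of all rows, and it was lower in PJ34 embryos. It belonged to Slc3a2, the heavy chain that Slc7a5 and Slc7a11 need at the cell surface. It ran from 6.69 over a median of 8.10 to 10.37 in control embryos and from 6.73 over 7.39 to 8.13 in PJ34 embryos. The PJ34 values lay in the lower part of a wide control range, and all 10 were below the control mean. The difference was -1.10 ± 0.39 (SE, limma unadjusted p = 0.0129, adjusted p = 0.823). The neutral amino acid carrier Slc1a4 and the proton-coupled carriers Slc36a1 and Slc36a3 came next by p, at -0.096, -0.25 and -0.092.

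Of 18 rows for carriers of mitochondria, lysosomes and synaptic vesicles, 3 rows passed that level, which 5.89% of all rows did. Slc25a15, the mitochondrial ornithine carrier, was higher by 0.86 ± 0.32 (SE, limma unadjusted p = 0.0145, adjusted p = 0.834), with 4 of 10 PJ34 embryos above all controls. Sfxn3, a mitochondrial serine carrier, was lower by 0.15 and the mitochondrial glutamate carrier Slc25a22 by 0.25, with 5 and 8 of 10 PJ34 embryos below all controls. Slc25a12, the aspartate and glutamate carrier, differed by -0.25.

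The amino acid response list, 20 rows of Atf4, the sensors upstream of it and genes it is known to control, had 0 rows past that level in either direction, and its median difference was -0.00092. Atf4 itself averaged 9.19 in both groups, and 17 of the 20 rows lay above the floor. Ddit3, Chac1, Sesn2 and Herpud1, stress-response genes with the smallest p in this list, differed by -0.39, -0.11, 0.31 and -0.097.

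Genes that use glycine and betaine were also expressed, with 17 of 22 rows above the floor, against 50.2% of all rows. The cell volume list had 11 of 14 rows above it. For the list of partners and other plasma membrane carriers the count was 5 of 17, and for the organelle and vesicle carriers 8 of 18. Gcsh, a subunit of the mitochondrial glycine cleavage system, averaged 11.68, and Gldc, its decarboxylase, averaged 8.53. Past the level that 5.89% of all rows passed were 4 of the 22 rows, of which 3 carried the symbol Bhmt, betaine-homocysteine methyltransferase, and were lower, at -0.31, -0.79 and -0.86 (limma adjusted p = 0.843 for each), and which of them measures the gene itself was not given. Ckb, a creatine kinase, was higher by 0.35.

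In the cell volume list 3 of 14 rows passed that level, beside the same 5.89% and with the same limit from the choice of lists. Lrrc8b, a subunit of the volume-regulated anion channel through which osmolytes leave the cell, ran from 7.28 over 8.67 to 9.84 in control and from 6.35 over 7.45 to 8.26 in PJ34 embryos. The difference was -1.41 ± 0.34 (SE, limma unadjusted p = 0.000651, adjusted p = 0.695), and 4 of 10 PJ34 embryos lay below all controls. Slc12a2, the sodium, potassium and chloride cotransporter, was lower by 0.20 with 8 of 10 PJ34 embryos below all controls, 1 of the 2 rows of the kinase Wnk1 was higher by 0.12, and the potassium and chloride cotransporter Slc12a7 differed by -0.12. None of these passed over all rows. Shmt2 and Mthfd2 stood in 2 of the lists.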

How the data were processed

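Each array measured amplified cDNA (WT-Ovation One-Direct) of 1 embryo on an Affymetrix Mouse Gene 1.0 ST array. The authors deposited log2 values made with RMA in Partek, per the submitters' notes (background correction, quantile normalization, probe set summary); software versions and the genome build were not given in the sources used here. Quantile normalization makes levels relative, so a change shared by most transcripts would not show. Groups and sires came from the sample labels. Rows were named from the platform's symbols, and 1 gene of the Slc38 family is not reported here.

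Deposited log2 values were tested with limma 3.58.1 (R 4.3.3) over all 21780 rows with 1 symbol, with Benjamini-Hochberg adjustment and a threshold of 0.1, the level of the study's own analysis: PJ34 against control, each family against control with an F test between families, and each embryo against the controls. The scripts were tested on simulated data. Members and lists were chosen with earlier results of these data known. Given with their values were bright rows, rows called in a family or embryo, the 6 with the smallest p, any with an unadjusted p below 0.05 and the 6 with the largest SD, and up to 4 genes per list by p. Alternatives were sire as a random block, sire means, median centring, all rows, rows above the floor alone, an intensity trend with robust estimation, a plain analysis of variance and leaving out each embryo. For the single-embryo comparisons only control embryos were left out. The number of arrays limits precision: the median SE of a group difference was 0.092. Figures were drawn with matplotlib 3.10.9.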

Additional observations from a re-analysis of the deposited data

Results flagged for a closer look

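In 5 of the 26 groups of embryos tested for the rows described with their values, 1 embryo lay apart from the rest of its group by more than a gap test (Dixon, 95% level) allows. Chance flags about 1 in 20 groups, but some of these rows were chosen for a single embryo or a large spread, so their share cannot be read against it. Over all 49 rows the test marked 14 of 98 groups (14.3%), and 7 of these 14 fell in MTM11-4, mostly in rows under the signal floor. MTM11-4 also had the highest array median, 6.23, and was the highest embryo in 11 member rows and the lowest in 2. In MTM11-1, with an array median of 6.12, 10 member rows were at their lowest and 0 at their highest. The part of the array medians in these flags was not tested.

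Slc38a6 in the control embryo D-1 was at 6.57, with the next control at 5.51. Row b of Slc38a9 in the control embryo B-1 was at 7.74, with the next control at 6.73. Slc6a15 in MTM11-4 was at 6.37, the lowest PJ34 value, with the next at 6.97. Slc6a5, under the floor in all embryos, was at 5.97 in MTM11-4, the highest PJ34 value, with the next at 5.55. Slc7a6os in MTM13-2 was at 10.06, the lowest PJ34 value, with the next at 10.64. The low Slc6a9 values of MTM14 were not marked, since the 2 embryos lay close together.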

How the results depend on the processing

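No paired analysis was possible because each sire fathered embryos of 1 group only and embryo numbers restart within each sire. PJ34 against control called 0 of the 49 members under each alternative. Over all rows it called 2 with sire as a random block (correlation -0.038) and 2 with dim rows left out, against 0, and leaving out 1 embryo gave 0 to 2. The family comparison called 0 members with the intensity trend and robust estimation, against 1 (Slc6a9 in MTM14), and 0 to 1 with 1 embryo left out; the cause was not tested. Without MTM14-1 the member called was Slc7a7 in MTM14 (0.92, adjusted p = 0.0454), with 1 embryo left in that family and assumed to vary like the others. In single PJ34 embryos 1 member was called over all rows of the table and 1 with the intensity trend, against 0 (Slc7a7 in MTM14-2 in both), and leaving out 1 control embryo gave 0 to 3. In single control embryos 1 was called with dim rows left out, against 2, since the Slc38a6 row is dim and was not tested there. Leaving out 1 control embryo gave 1 to 2, since the embryo left out is at times the one called. With 1 embryo left out, the PJ34 minus control difference of Slc38a6 ran from -0.19 to 0.016 and turned upward without D-1, and that of Slc7a5 ran from -0.00074 to 0.30 and turned downward without A-2. Other uncalled differences also moved by over 1.5 times: Slc6a6 ran from -0.14 to -0.0064, Slc7a6os from 0.096 to 0.23 and row b of Slc38a9 from 0.00095 to 0.21. Of 16 values given for named rows, 2 changed direction in 1 alternative each, and 1 lost its call. Centring the arrays moved the median of all rows from -0.016 to -0.0073.

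The arrays limit what can be read: 31 of the 49 rows have a mean at or under the signal floor, groups hold 3 sires each, and the MTM14 family holds 2 embryos.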
